A study of Mus musculus with 12 samples.

Results

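Wild-type double-negative (DN) thymocytes were described as 1 group. DN thymocytes carry neither the CD4 nor the CD8 coreceptor on their surface and come before all other T-cell stages of the thymus. The group was taken whole: all 6 arrays labelled wild type, of the 12 arrays in the series. They hold RNA of sorted CD4-CD8 DN thymocytes from C57 BL/6 mice aged 2 to 3 months, about 300 ng per array, hybridised to Illumina MouseWG-6 v2.0 beadchips. The other 6 arrays, 3 of NHD13 and 3 of NHD13 Lyl1-knockout thymocytes, entered none of the values below except 1 alternative normalization. The labels number the wild-type arrays as replicates 1 to 6 and do not say whether each came from its own mouse, nor do they name a gate beyond CD4 and CD8, so the spread between arrays may be partly technical.

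Each gene was described by its detection and by its signal. A probe was called detected on an array where its deposited detection p-value, which compares it with the negative controls of that array, was under 0.05. The signal is a normalized log2 intensity of the gene's brightest probe, given as the mean ± SD over the 6 arrays (n = 6) unless stated otherwise. Probes differ in how well they bind, so an order of genes by signal is an order of brightness and not of transcript number. As RNA was measured in bulk, fewer cells of a type and less RNA per cell cannot be told apart.

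A DN cell rearranges its T-cell receptor beta gene with the RAG recombinase, pairs the beta chain with the invariant pre-T-cell receptor alpha chain (Ptcra) and the CD3 chains, and signals through this pre-receptor before it turns CD4 and CD8 on. Notch1 signalling and interleukin 7 carry the cells through these steps, and E proteins, Gata3, Runx factors and Bcl11b fix the T-cell fate. The stages are told apart by Kit, Cd44 and Il2ra (CD25) on the surface.

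The promoters of 7 genes of this programme are printed here because they carry a contrast that runs through the whole transcriptome, described further on: T-cell identity genes with few CpG dinucleotides, and genes with many. Each window spans 250 bases before to 50 bases after the RefSeq gene start, 5′ to 3′ on the gene's strand, from build GRCm38.p6. In the first 5, capitals mark E-box letters, CAGGTG or its reverse complement CACCTG in the Cd3 genes, CAGCTG in Ptcra and both kinds in Rag1. The Cd3g window also holds CAGCTG, left in lower case. In Dtx1 and Xrcc6, capitals mark each CG. The Cd3g and Cd3d windows lie on opposite strands beside each other at chr9:44980382-44980681 (minus strand) and chr9:44981536-44981835 (plus strand), and Cd3e lies in the same cluster at chr9:45009562-45009861 (minus strand). The other windows are Ptcra at chr17:46763663-46763962 (minus strand), Rag1 at chr2:101649483-101649782 (minus strand), Dtx1 at chr5:120711620-120711919 (minus strand) and Xrcc6 at chr15:82016119-82016418 (plus strand).
Cd3g: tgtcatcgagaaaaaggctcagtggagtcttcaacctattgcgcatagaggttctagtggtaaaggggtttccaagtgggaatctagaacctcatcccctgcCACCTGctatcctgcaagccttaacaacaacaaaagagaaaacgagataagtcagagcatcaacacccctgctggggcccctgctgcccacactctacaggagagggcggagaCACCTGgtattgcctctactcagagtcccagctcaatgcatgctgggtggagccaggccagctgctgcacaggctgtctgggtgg
Cd3d: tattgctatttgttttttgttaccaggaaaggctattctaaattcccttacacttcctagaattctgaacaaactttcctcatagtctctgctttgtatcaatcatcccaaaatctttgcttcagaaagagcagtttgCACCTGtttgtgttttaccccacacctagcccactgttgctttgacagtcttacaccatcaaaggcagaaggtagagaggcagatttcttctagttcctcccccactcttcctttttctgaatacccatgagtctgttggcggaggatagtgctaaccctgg
Cd3e: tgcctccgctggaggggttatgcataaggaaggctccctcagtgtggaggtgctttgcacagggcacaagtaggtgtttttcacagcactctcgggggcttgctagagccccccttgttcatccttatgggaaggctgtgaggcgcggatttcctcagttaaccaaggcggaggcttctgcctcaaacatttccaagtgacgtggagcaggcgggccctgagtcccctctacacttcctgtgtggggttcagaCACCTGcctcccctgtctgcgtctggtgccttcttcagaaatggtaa
Ptcra: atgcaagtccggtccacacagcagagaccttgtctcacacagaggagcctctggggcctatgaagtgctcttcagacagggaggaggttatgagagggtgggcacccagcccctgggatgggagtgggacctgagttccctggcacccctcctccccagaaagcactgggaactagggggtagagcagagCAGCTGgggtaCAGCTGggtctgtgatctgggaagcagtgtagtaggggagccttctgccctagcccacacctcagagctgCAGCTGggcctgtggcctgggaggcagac
Rag1: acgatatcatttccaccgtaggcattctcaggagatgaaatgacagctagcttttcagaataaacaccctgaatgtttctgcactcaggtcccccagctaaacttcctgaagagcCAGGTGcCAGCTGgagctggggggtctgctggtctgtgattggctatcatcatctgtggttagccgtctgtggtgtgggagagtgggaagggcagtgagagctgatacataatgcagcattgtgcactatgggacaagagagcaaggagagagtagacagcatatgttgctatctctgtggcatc
Dtx1: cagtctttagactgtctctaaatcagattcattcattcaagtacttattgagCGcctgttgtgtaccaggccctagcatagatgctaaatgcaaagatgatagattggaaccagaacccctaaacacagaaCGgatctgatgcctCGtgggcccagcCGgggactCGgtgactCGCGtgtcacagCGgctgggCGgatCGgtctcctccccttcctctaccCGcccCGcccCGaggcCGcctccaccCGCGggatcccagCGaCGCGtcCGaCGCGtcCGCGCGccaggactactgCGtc
Xrcc6: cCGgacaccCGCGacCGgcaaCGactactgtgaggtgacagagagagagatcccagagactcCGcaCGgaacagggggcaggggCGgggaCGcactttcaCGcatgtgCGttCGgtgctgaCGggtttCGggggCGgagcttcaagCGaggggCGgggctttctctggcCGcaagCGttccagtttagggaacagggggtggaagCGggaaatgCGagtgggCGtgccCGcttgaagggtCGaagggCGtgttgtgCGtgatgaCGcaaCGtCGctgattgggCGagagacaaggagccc

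The letters CAGGTG occurred 2 times in the Cd3g window, which also held CAGCTG, and 1 time each in those of Cd3d and Cd3e. CAGCTG occurred 3 times in the Ptcra window, and the Rag1 window held 2 such E-boxes. E proteins bind E-boxes of the form CANNTG. On either strand, CAGGTG was found in 19.2% and CAGCTG in 15.4% of the 12655 single promoter windows of this length, so a match is a description and no site. The CD3 and Ptcra windows held 1 to 8 CG dinucleotides, against 26 in Dtx1 and 30 in Xrcc6.

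Of 45281 probes per array, 34885 carried 1 gene symbol, and these represented 19057 genes. Between 17168 and 19464 probes (37.9% to 43.0%) were detected per array, and the summed signal of an array ranged from 18826400 to 29846400. Correlations of log2 signal over all probes lay between 0.968 and 0.993 for every pair of the 6 arrays. The arrays fell into sets of 3 by sex-linked genes: replicates 1 to 3 carried the Y-linked RNAs of Eif2s3y and Kdm5d, and replicates 4 to 6 carried Xist, the RNA of the inactive X chromosome. Pairs within replicates 1 to 3 correlated at 0.978 to 0.990, pairs within replicates 4 to 6 at 0.989 to 0.993, and pairs across the sets at 0.968 to 0.978. Replicate 1 did not group with its set: over the 14484 probes detected on all 6 arrays it correlated with replicates 2 and 3 at 0.968 and 0.969 and with replicates 4 to 6 at 0.968 to 0.972, while replicates 2 and 3 correlated at 0.989. More probes were detected on each of replicates 1 to 3 (17824 to 19464) than on any of replicates 4 to 6 (17168 to 17349). The labels do not give the sex or say what else the sets differ in. Sex and any other difference between the sets thus cannot be told apart. Values are given for each set for only some of the genes that differ between them. A mean over the 6 arrays alone does not show that the sets overlap.

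Of the 19057 genes, 8104 (42.5%) were detected on all 6 arrays, 3801 (19.9%) on 1 to 5 arrays, and 7152 (37.5%) on no array. Among the genes detected on some arrays, 1720 were detected on a single array. Genes detected on all 6 arrays had a median signal of 8.99 and ranged from 5.53 to 14.43. The median signal was 5.11 for genes detected on some arrays and 4.69 for genes detected on none. The dimmest detected probe of an array lay between 5.15 and 5.42, so a signal near 5 or below is at the array's background, and an undetected probe does not show that a gene is silent.

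**Figure D1:**
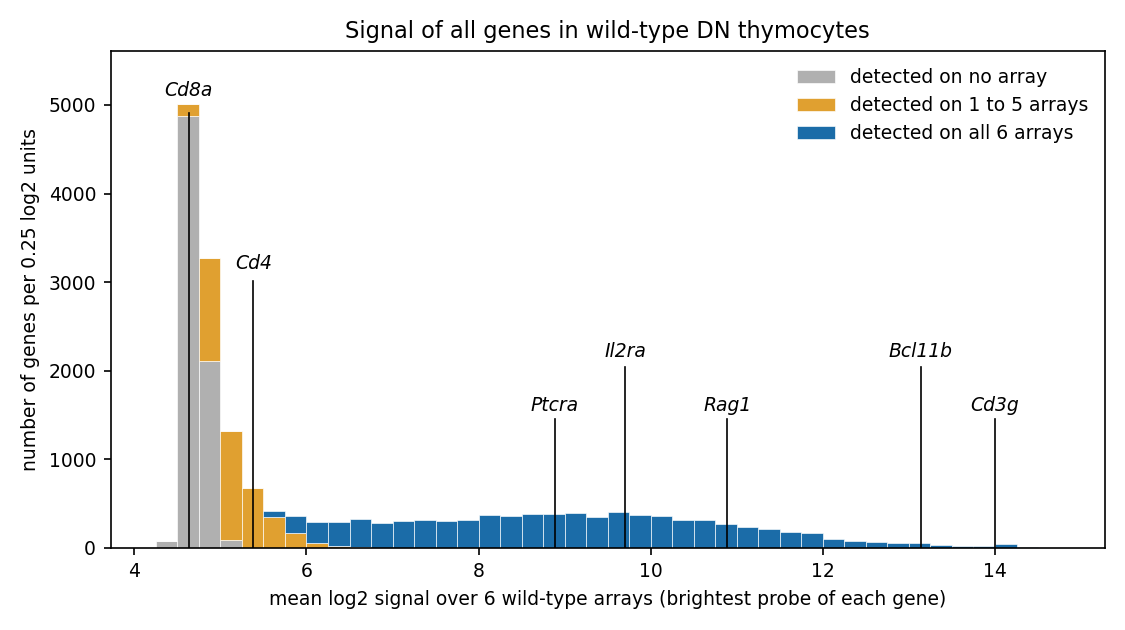
Number of genes (vertical axis, per 0.25 log2 units) by mean log2 signal over the 6 wild-type arrays (horizontal axis, brightest probe of each gene), coloured by the number of arrays that detected the gene, with 7 genes marked by vertical lines. The 5 DN markers lie between 8.88 and 14.00, Cd4 lies at 5.38 among the genes detected on some arrays, and Cd8a at 4.63 among the undetected genes.

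The 5 markers of the DN label were all detected on all 6 arrays. Cd3g, the gamma chain of CD3, reached 14.01, 13.90, 13.91, 14.20, 14.19 and 13.78 on replicates 1 to 6, and its mean of 14.00 ± 0.17 was brighter than that of 99.7% of the 19057 genes. Bcl11b, a zinc-finger factor needed for T-cell commitment, read 13.22, 13.27, 13.26, 13.02, 13.05 and 13.001, brighter than 99.2% of genes. The recombinase gene Rag1 read 10.65, 10.97, 10.81, 10.84, 11.00 and 11.08, brighter than 92.8% of genes. These 3 genes varied little between arrays, although all 3 Bcl11b values of replicates 4 to 6 were below those of replicates 1 to 3. The interleukin 2 receptor alpha chain Il2ra, the CD25 of DN2 and DN3 cells, read 9.97, 9.64, 9.56, 9.74, 9.77 and 9.54 and was brighter than 84.5% of genes. Ptcra read 8.87, 8.40, 8.59, 9.21, 8.88 and 9.33 and was brighter than 77.8% of genes; all 3 values of replicates 4 to 6 were above those of replicates 1 to 3.

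The coreceptors by which the cells were sorted did not behave alike. Both probes for Cd8a, the CD8 alpha chain, were undetected on every array, with means of 4.63 ± 0.24 and 4.60 ± 0.11. The brighter of 2 Cd4 probes was detected on 2 arrays, reading 5.77 on replicate 1 and 6.02 on replicate 6 and 5.00 to 5.27 on the others. Cd8b1, the CD8 beta chain, gave 12.42, 12.96, 12.71, 12.17, 12.15 and 12.47, and its other probes averaged 11.73 ± 0.43 and 9.71 ± 0.34. All 3 Cd8b1 probes were detected on all 6 arrays. Cd8a and Cd4 thus lay at or near background, as the label CD4-CD8 has it, while the RNA of the CD8 beta chain was plainly present, which goes against an absence of all coreceptor RNA.

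**Figure D2:**
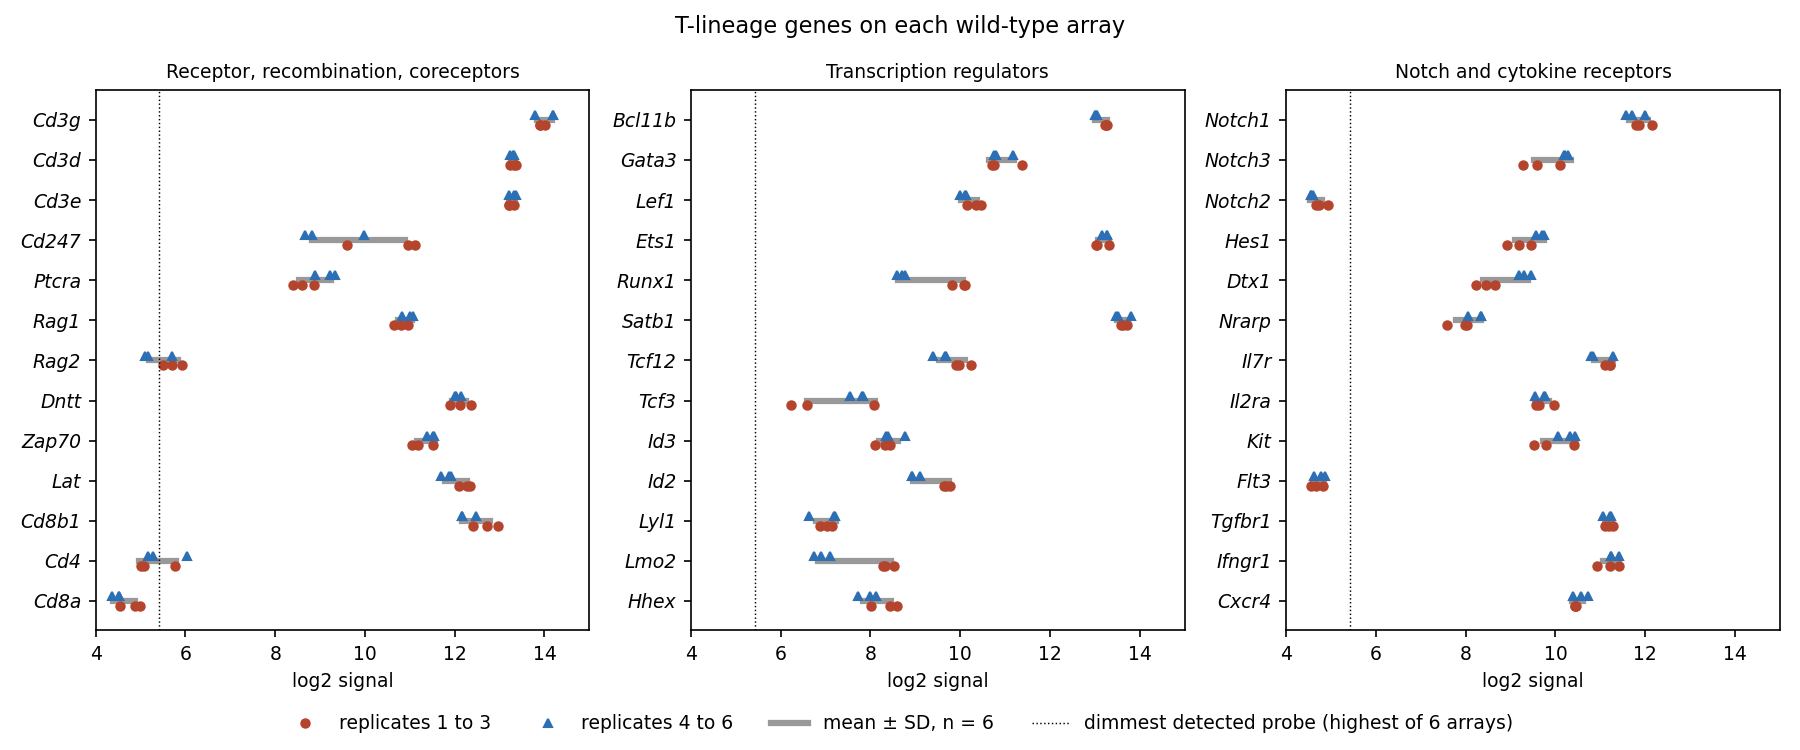
Log2 signal (horizontal axes) of T-lineage genes on each wild-type array, in 3 panels by role; circles are replicates 1 to 3, triangles replicates 4 to 6, grey bars the mean ± SD of the 6 arrays, and the dotted line the highest, over the 6 arrays, of the dimmest detected signal (5.42). CD3 chains, Bcl11b, Satb1, Ets1 and Cd8b1 lie at the bright end, and Cd4, Cd8a, Notch2 and Flt3 at or near the background.

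All 5 chains of the pre-receptor and CD3 complex were detected on all 6 arrays, beside 42.5% of all genes. Their median signal was 13.27, against 8.99 over all genes detected on 6 arrays. Cd3d and Cd3e, which assemble with Cd3g, averaged 13.30 ± 0.05 and 13.27 ± 0.07 and were among the steadiest genes of the list. Ptcra, given above, was dimmest at 8.88 ± 0.35, and Cd247, the zeta chain, varied most: its brightest probe read 9.60, 11.11, 10.97, 8.66, 9.99 and 8.83 (9.86 ± 1.04). Its other probes averaged 7.58 ± 0.12 and 6.40 ± 0.33 and did not follow that pattern. Receptor variable segments were bright as well. Trbv13-2, a variable segment of the beta chain, averaged 14.37 ± 0.07 and ranked among the 30 brightest genes, and Trgv4, a variable segment of the gamma chain, averaged 13.02 ± 0.14. Segments of a receptor family resemble each other, and how far such a probe reads related segments was not tested.

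Of 11 recombination and end-joining genes with a probe, 8 (72.7%) were detected on all 6 arrays, 2 on some and 1 on none, against 42.5% on all 6 over all genes. Xrcc6, the Ku70 subunit that holds broken DNA ends, was brightest at 13.53 ± 0.06. Dntt, the terminal transferase that adds untemplated bases at V(D)J junctions, averaged 12.09 ± 0.16. The nonhomologous end-joining genes Lig4, Prkdc and Nhej1 lay lower, at 7.53 ± 0.27, 7.37 ± 0.28 and 7.03 ± 0.50. Nhej1 averaged 6.60 on replicates 1 to 3 and 7.46 on replicates 4 to 6, without overlap. Rag2, the obligate partner of Rag1, read 5.93, 5.69, 5.50, 5.70, 5.09 and 5.16 with its 1 probe and was detected on 4 arrays. Xrcc5, the Ku80 partner of Xrcc6, was undetected on every array with its 1 probe (4.67 on average). Both proteins act only in complex with their bright partners, and a single dim probe does not show that the RNA was missing.

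The proximal signalling genes that read the receptor were mostly detected, 17 of 20 (85.0%) on all 6 arrays, beside 42.5% of all genes. Of the 17, 7 were lower and 2 higher on replicates 4 to 6 without overlap. The background shares were 17.3% and 22.1% of all genes detected on 6 arrays. Lat, the membrane adaptor, averaged 12.03 ± 0.25, and Zap70, the kinase recruited to CD3 chains, 11.36 ± 0.21. Csk, which restrains Src-family kinases, averaged 12.21 ± 0.12, and Vav1, an exchange factor for small GTPases, 11.64 ± 0.09. The Src-family kinase Fyn was dimmer at 7.96 ± 0.49. It averaged 8.39 on replicates 1 to 3 and 7.54 on replicates 4 to 6, without overlap. Txk and Cd5 were detected on no array, each with 1 probe, and Plcg1, the phospholipase downstream of Lat, on 1 array. For Cd5, whose surface protein rises as thymocytes receive receptor signals, the probe averaged 4.76.

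Surface markers of the DN stages were detected with few exceptions, 8 of 10 on all 6 arrays, beside 42.5% of all genes. Thy1, present on T cells from early stages on, averaged 14.08 ± 0.18, and Cd27, a TNF-family receptor, 12.84 ± 0.21. Kit, the receptor for stem cell factor on the earliest T-cell precursors, read 10.41, 9.52, 9.78, 10.43, 10.32 and 10.06. Cd44 averaged 9.36 ± 0.18 with the brightest of its 9 probes, of which 4 were detected on no array. Cd28, a costimulatory receptor, read 10.59, 10.75 and 10.66 on replicates 1 to 3 and 9.79, 9.86 and 9.72 on replicates 4 to 6, with no overlap. Flt3, a cytokine receptor of multipotent progenitors, was undetected by both its probes, with a mean of 4.72 for the brighter.

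Transcription factors of the T lineage were detected on all 6 arrays for 23 of 27 (85.2%), on some for 1 and on none for 3, against 42.5% on all 6 over all genes. Their median signal was 10.83 over the 23. Satb1, a chromatin organiser of thymocytes, averaged 13.62 ± 0.12, Ets1 13.19 ± 0.12, Ikzf1 (Ikaros) 12.74 ± 0.12, and Cbfb, the partner of all Runx proteins, 12.43 ± 0.15. Gata3 averaged 10.93 ± 0.28, Gfi1 10.94 ± 0.10, Tox 11.14 ± 0.17 and Lef1 10.20 ± 0.17. All 4 probes for Bcl11b were detected on all 6 arrays. Its dimmest one read 9.88 to 10.03 on replicates 1 to 3 and 8.52 to 8.62 on replicates 4 to 6. Its brightest, given above, differed less between the sets, also without overlap. The second brightest read 12.68 to 12.95 against 12.46 to 12.65, without overlap, and the remaining one 10.56 to 10.99 against 10.10 to 10.61, with overlap. The brighter Runx1 probe read 9.81, 10.08 and 10.10 on replicates 1 to 3 and 8.59, 8.76 and 8.71 on replicates 4 to 6. Its other probe, also detected on all 6 arrays, read 6.42, 7.12 and 7.28 against 5.73, 6.98 and 5.51, with overlap. Ikzf2 (Helios) read 8.94 and 9.29 on replicates 2 and 3 and 7.06 to 7.27 on the other 4.

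The undetected members were factors of later or other fates. Runx3, which silences CD4 in CD8 T cells, and Zbtb7b (ThPOK), which directs CD4 T cells, were detected on no array, at 4.53 and 5.12, as was Tox2 at 4.67, each with 1 probe. Foxp3, the factor of regulatory T cells, stood out: its brightest probe averaged 9.82 ± 0.15 on all 6 arrays, while its other probes averaged 5.12, 4.71 and 4.68, with the first detected on 3 arrays and the last 2 on none. A single bright probe among 4 does not settle whether Foxp3 RNA was present. Of the whole list, 9 of 23 genes lay lower on replicates 4 to 6 than on all of replicates 1 to 3 and 1 lay higher, beside background shares of 17.3% and 22.1%.

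Among E proteins, the activators that open T-cell genes, Tcf4 averaged 10.76 ± 0.40, Tcf12 (HEB) 9.81 ± 0.29 and Tcf3 (E2A) 7.35 ± 0.76. Their inhibitors Id2 and Id3 averaged 9.34 ± 0.40 and 8.40 ± 0.21, while Id1 and Id4 were detected on no array. Of these 5 detected genes, 3 were lower on replicates 4 to 6 without overlap and 0 higher, beside background shares of 17.3% and 22.1%. Id2 read 9.64 to 9.77 on replicates 1 to 3 and 8.93 to 9.11 on replicates 4 to 6. Tcf4 read 10.85 to 11.29 against 10.23 to 10.65, and Tcf12 9.91 to 10.24 against 9.40 to 9.68. Tcf3 read 8.08, 6.22 and 6.59 on replicates 1 to 3 and 7.82, 7.54 and 7.84 on replicates 4 to 6, a spread within the first set that is wider than the gap between the sets.

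Of 19 regulators of stem and progenitor cells, 8 (42.1%) were detected on all 6 arrays, 8 on some and 3 on none, a share on all 6 near the 42.5% of all genes. Ldb1, the adaptor through which LIM-only proteins assemble, averaged 13.03 ± 0.20. Lyl1, a basic helix-loop-helix partner of E proteins and Lmo2, read 7.15, 6.88, 7.03, 7.19, 7.20 and 6.63 and was detected throughout. Lmo2 read 8.27, 8.32 and 8.52 on replicates 1 to 3 and 6.73, 7.11 and 6.90 on replicates 4 to 6, and Mef2c, a factor of lymphoid and myeloid progenitors, 7.88, 8.24 and 8.87 against 6.89, 7.18 and 6.45. Hhex averaged 8.15 ± 0.32 and Nfe2 9.32 ± 0.21. Tal1, the close relative of Lyl1, was detected on 1 array (4.82 on average), and Erg, Gata2 and Mycn on none. Spi1 (PU.1), which DN cells shut off as they commit, was detected on 3 arrays, reading 5.74, 4.73, 5.20, 5.53, 5.81 and 5.11.

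The HOX genes, homeobox factors that pattern the body axis and act in blood progenitors, were mostly near background. Of 38, 3 (7.89%) were detected on all 6 arrays, beside 42.5% of all genes, 13 on some and 22 on none. The 3 were Hoxa7 (8.69 ± 0.49), Hoxa5 (7.03 ± 0.24) and Hoxa13 (6.08 ± 0.26), all of the A cluster. Hoxa7 averaged 9.03 on replicates 1 to 3 and 8.35 on replicates 4 to 6, without overlap, while the sets overlapped for Hoxa5 and Hoxa13. Hoxa9 and Hoxa10 were undetected with 3 and 2 probes.

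Notch receptors pass a signal from ligands on thymic stroma to the nucleus by cleavage, after which the freed domain joins Rbpj and Maml coactivators on DNA. Of 25 receptors, ligands and processing genes, 14 (56.0%) were detected on all 6 arrays, beside 42.5% of all genes. Another 5 were detected on some and 6 on none. Notch1 averaged 11.85 ± 0.21 and Notch3 9.94 ± 0.41, while both Notch2 probes were undetected and Notch4 was detected on 4 arrays at 5.48. The gamma-secretase subunits Psenen and Ncstn averaged 11.84 ± 0.21 and 10.87 ± 0.11, and the ligase Fbxw7, which marks the Notch domain for decay, 8.90 ± 0.31. No ligand was detected on all 6 arrays: Dll1 was detected on 2 and Dll4 on 1, and Jag1, Jag2 and Dll3 on none. All 3 Rbpj probes were undetected, at 4.59 to 4.67, although the protein is needed for the targets below, and a probe that reads no signal does not show its absence.

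Of 11 Notch target genes, 7 (63.6%) were detected on all 6 arrays, beside 42.5% of all genes. Hes1, a repressor, read 9.45, 8.91 and 9.19 on replicates 1 to 3 and 9.74, 9.71 and 9.57 on replicates 4 to 6. Dtx1 (Deltex) read 8.64, 8.23 and 8.46 against 9.45, 9.19 and 9.31, and Nrarp, a feedback inhibitor, 8.02, 7.97 and 7.59 against 8.35, 8.34 and 8.06. Replicates 4 to 6 were above replicates 1 to 3 for 5 of these 7 genes (Notch3, Hes1, Ptcra, Dtx1 and Nrarp), beside 22.1% of all genes detected on 6 arrays. For Il2ra and Myc the sets overlapped, and Hes5 was detected on 4 arrays, Hey2 on 1 and Hey1 and Heyl on none.

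Of 47 cytokine receptors, 23 (48.9%) were detected on all 6 arrays, beside 42.5% of all genes. Il7r, the receptor of the survival factor interleukin 7, read 11.10, 11.21, 11.21, 10.79, 11.27 and 10.83. The brightest others were Ifngr1 (11.25 ± 0.18), Tgfbr1 (11.18 ± 0.09), Il27ra (10.67 ± 0.08), Tgfbr2 (10.56 ± 0.19) and Il17rb (10.54 ± 0.10), receptors for interferon gamma, TGF-beta, interleukin 27 and interleukin 25. Il18r1 averaged 9.81 ± 0.24, whereas Il4ra and Ifnar1 were undetected with 1 probe each. Of the JAK kinases and STAT factors that carry these signals, 9 of 10 were detected on all 6 arrays, beside 42.5% of all genes. They ran from Stat3 (10.70 ± 0.22) to Stat2 (7.45 ± 0.37), and Stat5b was undetected by its 1 probe.

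Of 34 cytokines, 10 (29.4%) were detected on all 6 arrays and 17 on none. Il16 averaged 10.63 ± 0.40, Tgfb1 9.47 ± 0.50 and Ltb (lymphotoxin beta) 9.43 ± 0.66. Ifng read 6.75, 6.36 and 6.63 on replicates 1 to 3 and 7.57, 7.97 and 7.80 on replicates 4 to 6. Il2, Il7, Il10, Il17a and Kitl were among the undetected, and Il7 and Kitl, made by stroma, were undetected by 3 probes each.

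Of 21 chemokine and sphingosine phosphate receptors, which steer thymocytes through the organ, 10 (47.6%) were detected on all 6 arrays and 8 (38.1%) on none. Over all genes these shares were 42.5% and 37.5%. Cxcr4, the receptor that holds early thymocytes in the cortex, averaged 10.50 ± 0.12. Ccr9, a receptor for the thymic chemokine Ccl25, and S1pr1, the exit receptor of mature T cells, were undetected with 1 probe each, at 4.64 for both. Ccr6 read 9.19, 9.34 and 9.73 on replicates 1 to 3 and 7.39, 7.67 and 7.15 on replicates 4 to 6, and Cxcr5, the receptor of B cell follicles, 7.96, 7.84 and 8.64 against 6.19, 6.31 and 5.59. Among integrins, 12 of 25 (48%) were detected on all 6 arrays, beside 42.5% of all genes. The brightest were Itgae (10.40 ± 0.19) and Itgal, the alpha chain of LFA-1 (10.03 ± 0.37). Itgb7, the partner of Itgae, averaged 9.98 ± 0.33.

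Of 43 nuclear receptors 11 (25.6%) and of 12 Toll-like receptors 3 were detected on all 6 arrays, beside 42.5% of all genes. Rxrb was the brightest nuclear receptor at 11.06 ± 0.11. Nr3c1, the glucocorticoid receptor that thymocytes are known to use, was dim, reading 5.34, 7.29, 6.10, 5.58, 5.63 and 5.68. Of genes typical of CD4+CD8+ and later thymocytes, 9 of 11 (81.8%) were detected on all 6 arrays, beside 42.5% of all genes. Arpp21 averaged 12.67 ± 0.18, Cd1d1 9.83 ± 0.17 and Cd69 9.42 ± 0.09, while Ccr7 lay at 5.87 ± 0.15.

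Cell cycle genes were mostly detected, 37 of 48 (77.1%) on all 6 arrays, beside 42.5% of all genes. The replication helicase genes Mcm5 and Mcm4 averaged 13.19 ± 0.14 and 13.15 ± 0.14, the D-type cyclin Ccnd3 12.92 ± 0.27, topoisomerase Top2a 12.05 ± 0.38 and the mitotic kinase gene Cdk1 11.04 ± 0.32. The cyclin-dependent kinase inhibitor genes Cdkn2b and Cdkn2a were detected on 0 and 1 arrays, Cdkn1b on 3 and Cdkn1c on 5. Of the 37, 10 were higher and 9 lower on replicates 4 to 6 without overlap, beside 22.1% and 17.3% of all genes detected on 6 arrays. Ccnd2 read 11.67, 11.85 and 12.11 on replicates 1 to 3 and 10.83, 10.76 and 10.39 on replicates 4 to 6, and Rrm2, a subunit of ribonucleotide reductase, 10.19, 10.16 and 10.16 against 10.98, 10.69 and 10.93.

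DNA methylation and Polycomb genes, which silence chromatin, were detected on all 6 arrays for 18 of 25 (72.0%), beside 42.5% of all genes. Of the 18, 6 were lower and 0 higher on replicates 4 to 6 without overlap. The background shares were 17.3% and 22.1% of all genes detected on 6 arrays. Uhrf1 (13.32 ± 0.19) and Dnmt1 (11.81 ± 0.08), which copy methylation after replication, and Suz12 (12.50 ± 0.12) and Ezh2 (11.53 ± 0.47), core subunits of Polycomb complex 2, were brightest. The methyltransferase Dnmt3b averaged 11.19 ± 0.27, while all 3 probes for Dnmt3a were undetected. In the BCL2 family, 10 of 14 were detected on all 6 arrays, beside 42.5% of all genes. The survival factor Mcl1 was brightest (11.58 ± 0.20). Bcl2 averaged 9.60 ± 0.22 and the death-promoting Bcl2l11 (Bim) 9.25 ± 0.26. Glycolysis genes were split by isoform. Ldha (13.45 ± 0.18), Gapdh (13.45 ± 0.09), Pkm (12.79 ± 0.36) and the glucose transporters Slc2a3 (9.53 ± 0.13) and Slc2a1 (9.12 ± 0.28) were detected throughout, whereas Pklr, Eno2, Pgk2, Gapdhs, Slc2a2 and Slc2a5 were detected on no array.

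**Figure D3:**
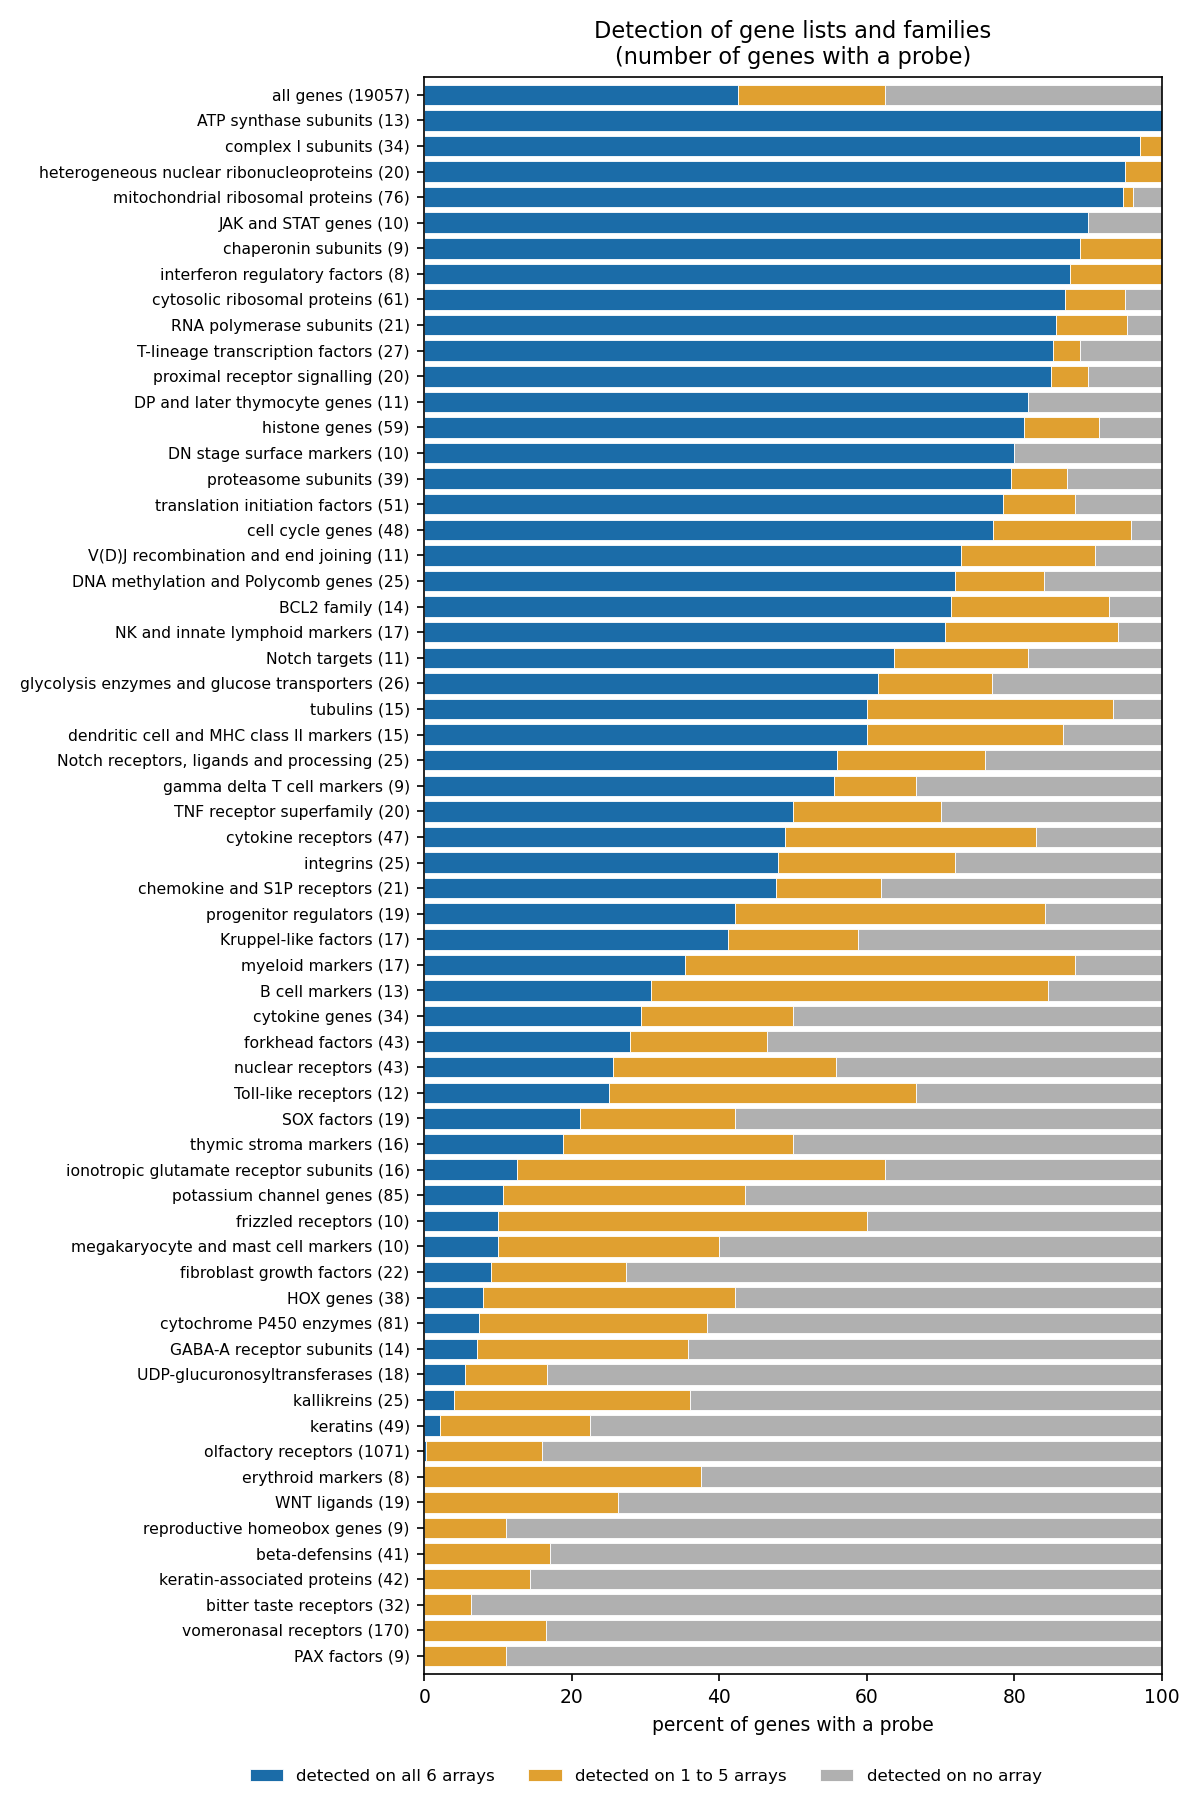
Share of the genes with a probe (horizontal axis, percent; number of genes in brackets) that were detected on all 6 arrays, on 1 to 5 arrays or on none, for all genes and for each list and family with at least 8 genes with a probe. ATP synthase subunits were detected in full, T-lineage transcription factors at 85.2%, HOX genes at 7.89%, and vomeronasal receptors at 0%.

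Markers of other cells that lack CD4 and CD8, and would pass a sort on these 2 proteins, were examined next. Of 9 gamma delta T cell markers, 5 (55.6%) were detected on all 6 arrays, beside 42.5% of all genes. Cd163l1, the scavenger receptor of gamma delta T cells, averaged 11.06 ± 0.13, Blk 10.0015 ± 0.25, and Sox13, a factor of interleukin 17 producing gamma delta cells, 8.61 ± 0.23. The factor Maf, the receptor Il23r and the cytokine gene Il17a were detected on no array. The list's mean signal ranged from 7.64 to 7.94 on replicates 1 to 3 and from 7.71 to 7.88 on replicates 4 to 6.

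NK and innate lymphoid markers were detected on all 6 arrays for 12 of 17 (70.6%), beside 42.5% of all genes. Nkg7, a granule protein, averaged 11.69 ± 0.26, the receptors Klra3 and Klrd1 11.53 ± 0.23 and 10.66 ± 0.13, and perforin (Prf1) 10.50 ± 0.20. Tbx21, a factor of NK and type 1 cells, averaged 7.62 ± 0.25, whereas Ncr1 (NKp46), the defining receptor, was undetected with its 1 probe at 4.62, and Eomes and Gzmb were detected on 1 array each. The list's mean signal was 8.04 to 8.26 on replicates 1 to 3 and 8.14 to 8.41 on replicates 4 to 6. The share of these signals that came from DN thymocytes themselves was not tested.

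Of 13 B cell markers, 4 (30.8%) were detected on all 6 arrays, beside 42.5% of all genes, and 7 on some. Of the 4, Cd79b, Pou2af1 and Fcrla were lower on replicates 4 to 6 without overlap and Vpreb1, a surrogate light chain gene, was higher (6.30 to 6.47 against 6.50 to 6.78). Cd79b, a chain of the B cell receptor complex, read 10.59, 10.49 and 11.14 on replicates 1 to 3 and 9.62, 9.98 and 9.63 on replicates 4 to 6. Fcrla read 9.17, 9.21 and 9.54 against 6.72, 7.73 and 7.08, and Cd22, detected on 4 arrays, 7.27, 7.43 and 7.73 against 5.22, 5.93 and 5.35. Pax5, the defining factor of the lineage, was detected on 1 array at 4.91 on average, and Ebf1 on 3. The list's mean signal was 6.46 to 6.76 on replicates 1 to 3 and 5.89 to 5.94 on replicates 4 to 6.

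MHC class II and dendritic cell genes followed the same division. Of 15, 9 were detected on all 6 arrays, beside 42.5% of all genes. Of the 9, 7 were lower on replicates 4 to 6 without overlap, beside 17.3% of all genes detected on 6 arrays. Cd74, the invariant chain, read 12.87, 12.65 and 12.88 on replicates 1 to 3 and 10.82, 11.58 and 11.10 on replicates 4 to 6, and its other 2 probes did not overlap between the sets either. H2-Aa read 10.82, 10.87 and 11.22 against 7.92, 8.94 and 8.46, and H2-Eb1 11.49, 11.26 and 11.42 against 9.11, 10.05 and 9.44. Ciita, the regulator that turns class II genes on, read 8.01, 7.56 and 7.95 against 5.09, 6.92 and 5.02. Over the 9 genes the median difference was -1.41. The dendritic markers Zbtb46 and Itgax were undetected on every array, by 3 and 2 probes. The list's mean signal was 8.30 to 8.49 on replicates 1 to 3 and 7.30 to 7.69 on replicates 4 to 6.

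The neutrophil genes S100a8 and S100a9 went the other way. S100a8 read 9.05, 9.95 and 7.81 on replicates 1 to 3 and 11.68, 12.78 and 10.98 on replicates 4 to 6, and S100a9 7.25, 8.51 and 6.05 against 10.43, 11.56 and 9.64. Ltf, Lcn2, Camp and Ngp, which mark neutrophil granules, were like them highest on replicate 5 and lower on replicate 6 than on replicate 4. Their lowest value was on replicate 3 or, for Lcn2, on replicate 1. Lyz2, which macrophages also make, ran differently, at 10.01, 10.27 and 10.54 against 8.90, 9.88 and 8.20. Mpo, an enzyme of early myeloid cells, averaged 7.89 ± 0.31 on all 6 arrays, while Elane, Prtn3 and Ctsg were detected on 2, 1 and 2 arrays and Cd14 and Itgam on none. Of 17 myeloid markers 6 (35.3%) were detected on all 6 arrays, beside 42.5% of all genes. The list's mean signal was 6.24 to 6.85 on replicates 1 to 3 and 6.78 to 7.86 on replicates 4 to 6. The part of other cells in the difference between the sets was not tested.

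**Figure D4:**
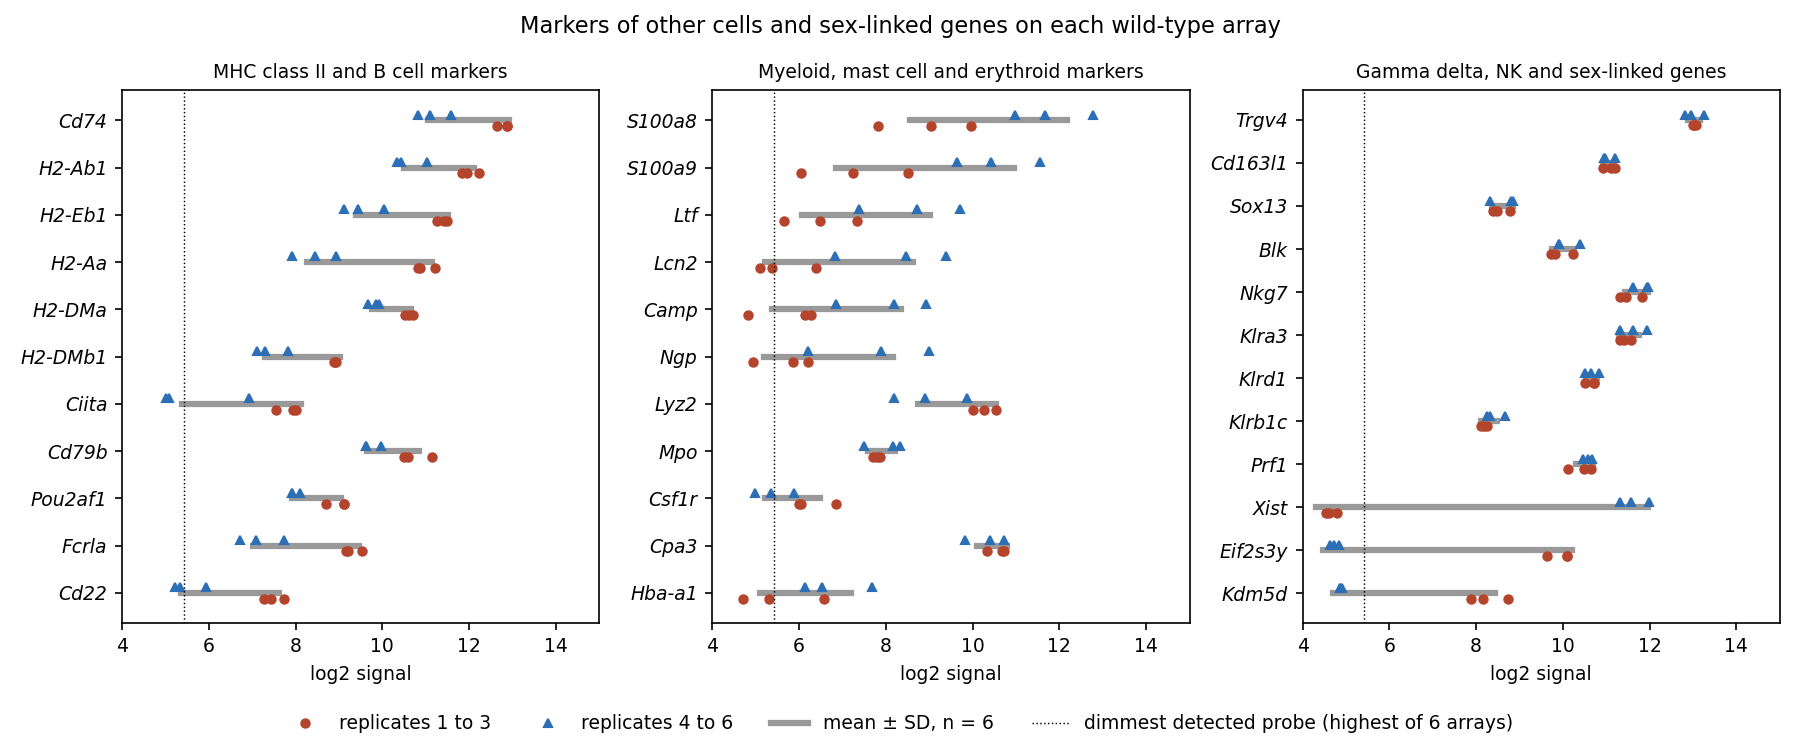
Log2 signal (horizontal axes) of markers of other cells and sex-linked genes on each wild-type array, in 3 panels; circles are replicates 1 to 3, triangles replicates 4 to 6, grey bars the mean ± SD of the 6 arrays, and the dotted line the highest, over the 6 arrays, of the dimmest detected signal (5.42). Class II and B cell genes lie higher on replicates 1 to 3, S100a8 and S100a9 higher on replicates 4 to 6, and the sets overlap for Trgv4, Cd163l1, Nkg7 and Prf1.

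None of 8 erythroid genes was detected on all 6 arrays, beside 42.5% of all genes. Alpha globin (Hba-a1) read 4.70, 6.58, 5.30, 7.68, 6.52 and 6.14. Cpa3, a mast cell protease, was the exception in its list of 10: all 3 probes were detected on all 6 arrays, with means of 10.44 ± 0.35, 10.38 ± 0.38 and 8.15 ± 0.53, while Mcpt4 and Ms4a2 were undetected and Fcer1a was detected on 2 arrays. Of 16 stromal markers 3 were detected on all 6 arrays, beside 42.5% of all genes. The 3 were Pecam1 (9.09 ± 0.19), which blood cells also carry, Ccl25 (7.43 ± 0.32) and Cldn4 (6.89 ± 0.30). Foxn1, Psmb11 and Epcam of thymic epithelium and Col1a1 of fibroblasts were detected on no array.

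The brightest 30 genes were mainly those of protein synthesis. Rps2 led at 14.43 ± 0.11, followed by Rps9, Rpl9, the tubulin Tuba1b and Rplp1, and the list included the elongation factors Eef1a1 and Eef1g, the histones H2ac24, H2ac13, H2ac20, H2ac10 and H2ac7, Ppia, Ybx1, Atp5b and the pseudogene Ubb-ps. Members of the histone and ribosomal protein families, and pseudogenes, have near-identical copies, and which copy a probe reads was not tested. The values of the 30 lie between 14.16 and 14.43, so neighbours in this order differ by less than their SD of 0.04 to 0.27.

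Gene families ranged from those read in full to those with no member detected on all 6 arrays, with others between, such as tubulins (9 of 15). Over all genes the share was 42.5%. All 13 ATP synthase subunits, 33 of 34 complex I subunits, 72 of 76 mitochondrial ribosomal proteins and 53 of 61 cytosolic ribosomal proteins were detected on all 6 arrays. Among the last, Rps20, Rps23 and Rpl17 were detected on no array with 1 probe each; as every cell needs these proteins, the 3 show how a single probe can miss a gene. Psmb11, the thymoproteasome subunit of cortical epithelium, was 1 of 5 undetected proteasome genes, with Psmd3, Psma3, Psma1 and Psma6. At the other end stood 1071 olfactory receptors, of which 2 were detected on all 6 arrays (Olfr724 at 6.27 ± 0.21 and Olfr352 at 5.68 ± 0.25) and 900 on none. No member was detected on all 6 arrays among 170 vomeronasal receptors, 32 bitter taste receptors, 42 keratin-associated proteins, 41 beta-defensins, 19 WNT ligands, 9 PAX factors or 9 reproductive homeobox genes.

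Single members stood apart in sparse families. Krt10 (8.93 ± 0.18) was the 1 keratin of 49 and Klk8 (10.57 ± 0.19) the 1 kallikrein of 25 detected on all 6 arrays. Of 85 potassium channel genes 9 were, among them Kcnab2 (11.81 ± 0.13), Kcnk5, Kcnn4, Kcnq5 and Kcna3, the last a channel of T cells. The only frizzled receptor of 10 was Fzd5 (7.99 ± 0.38), beside 0 of the 19 WNT ligands. Of 43 forkhead genes 12 were detected on all 6 arrays, with Foxp4, Foxp3, Foxn3, Foxj3 and Foxk2 the brightest, and of 19 SOX genes 4: Sox4, Sox12, Sox13 and Sox5. Kruppel-like factors were divided, 7 of 17 on all 6 arrays (Klf13, Klf6, Klf2, Klf7 and Klf3 the brightest) and 7 on none, whereas 7 of 8 interferon regulatory factors were detected on all 6.

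The share of genes detected on all 6 arrays was 33.8% for chromosome X and ran from 36.2% (chromosome 7) to 48.6% (chromosome 8) over the autosomes. On chromosome Y, 1 of 19 genes (5.26%) was detected on all 6 arrays: Uty, through 1 of its 4 probes, which read 6.37, 5.88, 5.37, 5.74, 5.54 and 6.42. This probe gave the same range on the arrays that lacked Eif2s3y (9.64, 10.11 and 10.11 against 4.62, 4.72 and 4.85) and Kdm5d as on those that carried them, and the other Uty probes were undetected on every array. Xist read 4.53, 4.62 and 4.79 on replicates 1 to 3 and 11.56, 11.99 and 11.31 on replicates 4 to 6.

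Detection and the base composition of promoters went together across the genome. A single RefSeq window of 300 bases was matched for 12655 genes, and a window was called CpG-rich where its observed over expected CpG was at least 0.6 and its GC content at least 50%. Of genes detected on all 6 arrays 75.0% had a CpG-rich window, against 41.9% of those detected on some arrays and 24.2% of those detected on none. Over all 12655 genes the share was 48.9%. Conversely, 64.3% of 6187 genes with a CpG-rich window were detected on all 6 arrays, against 20.5% of 6468 others. Without olfactory and vomeronasal receptor genes, the share in the undetected class was 29.5%. The TATA letters TATAAA, on either strand, showed the reverse order: 6.97%, 13.7% and 20.1% of windows in the 3 classes, beside 13.3% of all windows. Among the 500 brightest genes, 14.3% of 336 windows held these letters. The ETS letters CCGGAAGT occurred in 10.2%, 3.36% and 1.93%, beside 5.69% of all windows.

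**Figure D5:**
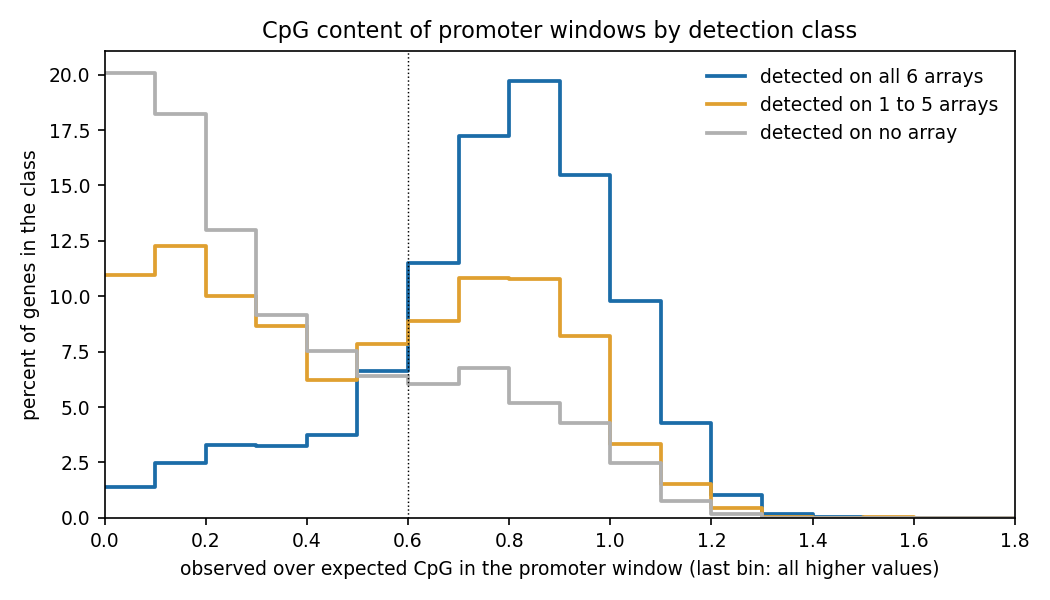
Share of genes in each detection class (vertical axis, percent) by observed over expected CpG of the promoter window (horizontal axis, in bins of 0.1), for 12655 genes; the dotted line marks 0.6. Genes detected on all 6 arrays have a median of 0.80 and lie mostly to its right, those detected on no array have a median of 0.29 and lie mostly to its left, and those detected on some arrays spread over both ranges (median 0.52).

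The T-cell identity genes sat on the CpG-poor side of this division although Cd3g, Cd3d and Cd3e were bright. None of the 5 windows of the pre-receptor and CD3 chains was CpG-rich, with an observed over expected CpG of 0.18 for Cd3g, 0.08 for Cd3d, 0.33 for Cd3e and 0.04 for Ptcra, and neither was that of Rag1 (0.16). In the printed windows the contrast is visible in the 30 capital CG pairs of Xrcc6 and the 26 of Dtx1, whose ratios were 1.04 and 1.00. The T-lineage transcription factors mostly stood on the other side, with 7 of 8 windows CpG-rich, but only 8 of 27 factors had a window. The window of Bcl11b, with 43.0% GC and a ratio of 0.65, was not CpG-rich. Cell cycle genes (25 of 30) and E proteins and Id inhibitors (4 of 4) were mostly CpG-rich too, beside 48.9% of all windows. Of the markers of other cells, 1 of 12 NK, 1 of 10 B cell and 0 of 13 myeloid windows were CpG-rich, and of 903 olfactory receptor windows 0 were.

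Most genes detected on all 6 arrays were steady: their median SD was 0.23, 4448 of the 8104 had an SD under 0.25, and 36 (0.444%) had an SD over 1. Puf60, a splicing factor, varied least among the brighter ones (13.10 ± 0.02), with Fbxl6, Gm5801, Smim19, Pomp, Zpr1, Nin, Icam2, Rab28 and Irf3 next. Among the 15 genes that varied most, Xist, Eif2s3y and Kdm5d followed the sets, and S100a8, S100a9, Lcn2 and Retnlg were neutrophil genes. Fosb, an immediate early gene, read 5.03, 5.40 and 6.50 on replicates 1 to 3 and 8.66, 8.01 and 9.12 on replicates 4 to 6, and Fcmr, the Fc receptor for IgM, 10.52, 10.63 and 10.96 against 7.73, 8.63 and 7.71.

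Another 6 of the 15 shared a pattern that crossed the sets. Eef2, the translation elongation factor, read 6.70, 12.10, 12.11, 6.47, 11.08 and 8.56, high on replicates 2, 3 and 5 and low on the rest. All 3 Eef2 probes had this shape, with SDs of 2.44 to 2.61. Rab1b, Ddx5, 1110017D15Rik, Phgdh and the peptide transporter Slc15a2 (7.48, 7.91, 8.68, 4.50, 8.77 and 6.51) were likewise highest on replicates 2, 3 and 5 by their brightest probe, but the second Rab1b probe read 7.23, 6.65, 6.08, 7.52, 7.29 and 7.76, and the other 2 Ddx5 probes were undetected. The brightest Cd247 probe and the fifth of 6 Ikzf1 probes (6.61, 8.60, 8.61, 6.27, 7.20 and 6.81) had the same high arrays. The other detected probes of both genes had SDs of 0.12 to 0.33. Among these, the Ikzf1 probes averaging 11.20 and 10.61 were also highest on replicates 2, 3 and 5, over a narrower range. The Ikzf1 probes averaging 12.74 and 9.13 and the other Cd247 probes were not. Among 2981 genes with several probes detected on all 6 arrays, 50 had a probe with an SD over 1, and in 24 of these another probe had an SD under 0.25.

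Between the sets, 3197 of the 8104 genes (39.4%) did not overlap, 1793 (22.1%) higher and 1404 (17.3%) lower on replicates 4 to 6. This split depended on the scaling: the higher share was 56.1% of the 3197 with quantile normalization and 88.5% of 3894 with median scaling. Without replicate 1 the count was 5060, and leaving out another replicate gave 3602 to 4299. Leaving out an array cannot lower this count, because fewer arrays then have to lie apart. Detection itself switched for 178 genes detected on all of replicates 1 to 3 and on none of 4 to 6, and for 103 the other way. The largest differences among the first were Eif2s3y, Kdm5d, Mid1, Tubb6 and Cd55, and among the second Retnlg, F5, Cebpe, Il1b and Adamdec1. Mid1, an X-linked ubiquitin ligase, read 6.39, 8.35 and 5.70 against 4.68, 4.85 and 4.58, and Cebpe, a factor of granulocyte maturation, 4.47, 5.04 and 4.68 against 6.79, 6.41 and 6.49.

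Probes of 1 gene often disagreed, which bounds what any single signal shows. Of 9172 genes with several probes, 1975 (21.5%) had a probe detected on all 6 arrays and another detected on none. Where several probes of a gene were detected on all 6 arrays, their means spanned a median of 1.49 log2 units, and over 3.84 in 1 gene of 10.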

How the data were processed

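RNA of 6 wild-type DN thymocyte samples was measured on 1-colour beadchips. The authors deposited a summarised intensity for each probe and a detection p-value against the array's negative controls, per the file headers, and a second table of log2 values, with no account of how it was made in the labels or headers; BeadStudio and limma are named as tools, per the submitters' processing notes. The 6 wild-type arrays alone went through the neqc function (R 4.3.3, limma 3.58.1: background from negative controls inferred from the detection p-values, offset 16, quantile normalization, log2). A gene's level is that of its brightest probe by mean, and its detection that of its best-detected probe, at p under 0.05. Probe symbols came from the platform annotation (34885 probes with 1 symbol, 18 with several, 10378 with none), and promoter windows from RefSeq (GRCm38.p6).

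The arrays form 1 group, so no test was made and no depth interval applies; the number of arrays limits the precision. The split into replicates 1 to 3 and 4 to 6 follows sex-linked genes and is no comparison of conditions. The group, the 32 gene lists (631 genes, 581 with a probe), the 33 families and the rule for named genes were chosen with earlier results of these data known. The text names genes from among the 30 brightest and the lists, the 15 most and 10 least variable genes, exceptions in families and the 5 largest switches of detection on each side. Cd247, Ikzf1 and Trbv13-2 probes were also compared after their values were seen. Normalization, threshold, probe choice and left-out arrays were varied. The steps were tested on simulated data.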

Additional observations from a re-analysis of the deposited data

Results flagged for a closer look

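The highest or lowest of the 6 arrays stood apart from the other 5 for 13 of the 284 genes named here (4.58%). Its gap to the nearest array, as a share of the range, was above Dixon's critical value for 6 samples, which chance gives in about 1 of 20 groups. The lowest array stood apart for Cbfb (12.14 on replicate 4, others 12.43 to 12.56), Fbxw7 (8.28 on replicate 1, others 8.93 to 9.09), Prf1 (10.12 on replicate 1, others 10.48 to 10.67) and Il10 (4.52 on replicate 5). The highest array stood apart for Il18r1 (10.28 on replicate 5, others 9.56 to 9.80). Near the background it stood apart for Hes5 (6.10), Hey2 (5.76), Eomes (5.99), Gzmb (5.39) and Dnmt3a (4.91) on replicate 1, for Plcg1 (5.66) on replicate 2, for Psma1 (5.09) on replicate 3 and for Rbpj (5.30) on replicate 4. The detections of Hey2, Eomes and Gzmb on 1 array were those on replicate 1, and that of Plcg1 the one on replicate 2. Outside the named genes, 2171 probes with no gene symbol were detected on all 6 arrays; they entered no count of genes.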

How the results depend on the processing

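No paired analysis was possible because the arrays form 1 group and no result comes from a test. The count of genes detected on all 6 arrays was 8104 and lay between 7552 (detection p under 0.01) and 8612 (replicates 1 to 3 alone) over all alternatives run, and that of genes detected on none between 7152 and 9455. Genes detected on some arrays fell from 3801 to 2050 at a detection p under 0.01. They fell to 2646 with replicates 1 to 3 alone and to 1518 with replicates 4 to 6 alone. Fewer arrays leave fewer ways to be detected on some, and the gap between these subsets was not tested. The count of genes whose sets do not overlap ran from 3602 to 5060 when 1 replicate was left out, against 3197. A rise was fixed by the rule, since leaving out an array cannot lower this count. The highest count was without replicate 1, and each of the others gave 3602 to 4299. Why replicate 1 gave the largest rise was not tested. The median signal of genes detected on all 6 arrays was 8.99 and became 9.22 with all 12 arrays normalized together, 8.94 with median scaling, 9.24 without background correction and 9.10 in the authors' deposited log2 table. Without background correction Cd4 and Cd8a read 7.21 and 6.84, above 53.0% and 5.31% of genes. Of 128 counts of list members detected, 121 stayed within 1.5 times the main count; the others were nuclear receptors (7 at p under 0.01), B cell markers (7 on replicates 1 to 3), myeloid markers (11 on replicates 4 to 6), erythroid markers (1 on replicates 4 to 6) and sex-linked genes (0 to 3). The promoter shares without receptor genes were added after the data were seen. No depth applies to arrays; signals below about 5 are background.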
